A study of Mus musculus with 10 samples.

Results

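DNA replication and nucleotide synthesis genes were examined as 44 named mouse genes, taken by symbol from the 34932 genes to which the deposited transcripts belong. They encode factors that license origins, the replicative helicase, the sliding clamp and its loader, the replicative polymerases and primase, proteins of single-stranded DNA and Okazaki fragments, enzymes that make deoxynucleotides, cyclin E and E2F regulators of S phase entry, and factors that copy chromatin. All 44 were detected and all 44 passed the filter on low counts. The libraries were made from Pmel CD8+ T cells, whose transgenic T cell receptor recognizes the melanoma antigen gp100. Spleen cells from the Pmel strain (Thy1.2/Thy1.2) had been stimulated by gp100 peptide plus IL-2, transduced with the retroviral vector MSCV-IRES-Thy1.1 (MIT), either empty (MIT-Empty) or carrying the open reading frame of mouse BATF (MIT-BATF), and then cultured with IL-2, IL-7 and IL-15. Thy1.1+ cells were transferred into Ly5.1 mice bearing B16-F10 melanoma, and at day 7 a sort of 2000 live Thy1.1+ Pmel T cells per mouse gave 1 library, with 5 libraries in each group. Both groups therefore share activation, retroviral transduction, the Thy1.1 reporter, the transfer and the tumor, and differ by label in the BATF reading frame. The methods of the study put its mice at 8 to 12 weeks of age, of both sexes.

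Before a cell copies its genome, the origin recognition complex with CDC6 and CDT1 loads the MCM2-7 ring onto DNA, and CDC45 and the GINS complex turn that ring into the active helicase at the start of S phase. Polymerases then extend primers laid by primase, held to DNA by the PCNA clamp, while the lagging strand is joined from Okazaki fragments. Most of these genes are transcribed in late G1 and S phase under E2F control, and their transcripts rise when T cells are activated and divide. In bulk samples fewer cells in S phase and less RNA per cell cannot be told apart.

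The upstream sequences of 5 genes are shown because the vector carries a transcription factor gene and because E2F letters are the feature commonly linked to this gene group. They come from RefSeq on GRCm38.p6 and are written 5′ to 3′ on the gene's own strand, ending at the base before the start site. Capitals mark E2F letters (TTTCCCGC, TTTCGCGC, TTTGCCGC or TTTGGCGC on either strand) and the letters CCAAT on either strand. Mcm5 (chr8:75109329-75109508, plus strand) and Mcm6 (chr1:128359706-128359835, minus strand) encode helicase subunits, Pola1 (chrX:93632156-93632315, minus strand) the catalytic subunit of polymerase alpha, Rrm1 (chr7:102441535-102441694, plus strand) the large subunit of ribonucleotide reductase and Tyms (chr5:30073626-30073785, minus strand) thymidylate synthase.
Mcm5: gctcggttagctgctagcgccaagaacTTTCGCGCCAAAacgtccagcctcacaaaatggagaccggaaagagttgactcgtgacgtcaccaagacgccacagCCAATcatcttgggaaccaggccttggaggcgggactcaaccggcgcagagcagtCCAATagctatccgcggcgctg
Mcm6: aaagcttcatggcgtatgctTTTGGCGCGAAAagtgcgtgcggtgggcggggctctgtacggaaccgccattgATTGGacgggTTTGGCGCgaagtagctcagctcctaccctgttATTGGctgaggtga
Pola1: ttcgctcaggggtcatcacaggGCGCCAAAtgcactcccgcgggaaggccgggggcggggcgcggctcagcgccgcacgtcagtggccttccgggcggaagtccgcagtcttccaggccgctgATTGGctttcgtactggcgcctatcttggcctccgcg
Rrm1: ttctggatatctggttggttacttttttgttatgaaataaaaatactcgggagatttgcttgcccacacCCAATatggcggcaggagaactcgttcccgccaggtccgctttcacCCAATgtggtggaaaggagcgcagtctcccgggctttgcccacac
Tyms: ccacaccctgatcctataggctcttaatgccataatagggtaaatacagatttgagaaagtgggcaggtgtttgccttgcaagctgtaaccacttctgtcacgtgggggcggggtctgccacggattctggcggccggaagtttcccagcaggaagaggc

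Mcm5 held 2 overlapping E2F matches, Mcm6 held 3, and Pola1 held 1 in the stretches shown. Rrm1 and Tyms held 0 E2F matches, and Rrm1 held 2 CCAAT matches. The exact letters searched leave out variant forms, such as ttcccgcc in the stretch of Rrm1, so 0 matches do not show that an E2F site is absent. The genes shown were picked by hand, and a link of the letters with the difference between groups was not tested. RefSeq windows of 300 bases (250 before and 50 after the start) were found for 36 of the 44 genes. Mcm4, Gins1, Gins2, Gins4, Rfc2, Prim2, Pole and Ccne2 had no entry. E2F letters were found in 12 of the 36 windows (33.3%), against 4.23% of 8841 windows of tested genes and 2.32% of all 27025 windows. The letters CCAAT, which the factor NF-Y binds, were in 22 of 36 windows (61.1%) against 39.7% of tested genes, and 1 E2F match of the 36 windows overlapped a CCAAT match. The CHR letters TTTGAA, commonly linked to mitotic genes, were in 4 of 36 windows (11.1%) and in 17 of 24 windows of mitosis genes (70.8%), against 12.6% of tested genes. AP-1 letters (TGACTCA or TGAGTCA, either strand), the core that BATF binds with its partners, were in 0 of 36 windows and in 3.46% of windows of tested genes. A match of letters is a description and shows no binding.

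**Figure D1:**
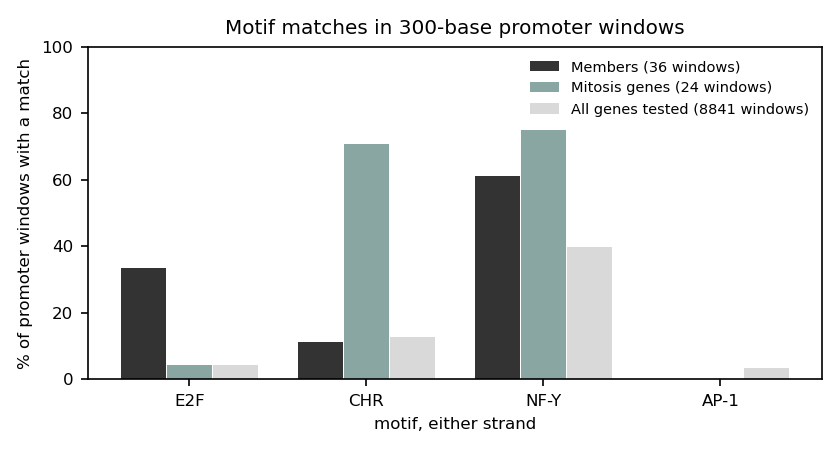
Percent of 300-base promoter windows with at least 1 match to E2F, CHR, NF-Y (CCAAT) or AP-1 letters, for the 44 replication genes (members, 36 windows), mitosis genes (24 windows) and all genes tested (8841 windows). E2F letters were in 33.3% of the replication windows and CHR letters in 70.8% of the mitosis windows, while all genes tested stood at 4.23% and 12.6%.

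Several features of the libraries bear on the values below. Batf itself was at 21.9 ± 5.54 CPM (counts relative to the library size, scaled by TMM) in the libraries labelled MIT-BATF against 29.2 ± 14.8 CPM (MIT-Empty; mean ± SD, n = 5 each; log2 fold change -0.41, edgeR adjusted p = 0.522). The labels were thus not borne out by the counts of this gene. Whether reads of the vector were counted under Batf is not known, and they could not be told from those of the endogenous gene. Library totals ran from 6534472 to 34102086 counts. In both groups the counts of replicate 4 lay within those of replicate 2 and the counts of replicate 5 within those of replicate 3, exceeding them in 0.286% to 0.661% of genes, while every other pair of libraries did so in at least 3.54%. Counts of calls and medians are therefore printed for the deposited counts and again with shared reads counted once. For the latter the contained library was subtracted from the one that holds it. For the 10 genes given by library, fold changes and edgeR adjusted p are printed both ways. Their CPM by library are from the deposited counts only. These could change with the subtraction, as for Rfc4 in MIT-BATF replicate 3 (46.7 to 28.35 CPM). Single values without such a remark are those of the deposited counts. Reads were not analysed here, and should a read be counted in both libraries of a pair, p-values, SDs and intervals from the deposited counts are too small. Markers of other cells moved with the labels, and their part in the results was not tested. The summed level of 10 melanoma markers was 18.3 to 33.4 CPM under the label MIT-BATF, compared with 47.1 to 1839 CPM under MIT-Empty, highest in replicates 4 (1839 CPM) and 2 (611.2 CPM), with 7 of 8 tested markers lower in MIT-BATF (2 of 7 with shared reads counted once). After the subtraction the sum was 54.4 CPM in MIT-Empty replicate 2 and 135.1, 75.0, 1988 and 50.7 CPM in replicates 1, 3, 4 and 5. For 12 macrophage markers the sums were 25.02 to 82.6 and 43.6 to 290.1 CPM, with 4 of 11 lower (1 of 10 with shared reads counted once). The 9 CD8 T cell identity genes summed to 3276 to 5510 CPM (MIT-BATF) and to 3750 to 5996 CPM (MIT-Empty) with 0 past the test, while Cd4 and Foxp3 together reached at most 1.76 CPM. The other cell markers (13 genes) summed to 6.74 to 301.2 and 14.4 to 137.8 CPM with 0 of 3 tested past the test, and no marker of these lists was at 0 in every library. Mitochondrially encoded genes took 33.2% of all counts from MIT-BATF replicate 1, whereas the other 9 libraries ranged from 11.5% to 23.1%.

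Of the 44 genes, 7 fell in the libraries labelled MIT-BATF and 0 rose (edgeR's quasi-likelihood test, adjusted p under 0.05 over all genes tested). These were Gins1, Prim2, Fen1, Rrm1, Tyms, Tk1 and Ccne1, with log2 fold changes of -0.95 to -0.52. Over all 11781 genes tested 2.43% were called lower and 2.16% higher. With shared reads counted once 0 of the 44 genes passed the same test by edgeR, where 0.683% of 11129 genes were called lower, and DESeq2 called 0 as well. At an unadjusted p under 0.05 edgeR had 13 of the 44 genes with the deposited counts and 11 with shared reads counted once, each of them lower in MIT-BATF. Over all genes tested 8.97% were lower and 9.13% higher at that p with the deposited counts, and 5.18% and 5.46% with shared reads counted once. The fold change was below 0 for 36 of the 44 genes, with a median log2 value of -0.27 against 0.0065 over all genes tested, and with shared reads counted once for 33 genes, with a median of -0.28 against -0.0016. Gins3, Rfc3 and Rpa2 were those that went from below to above 0, with log2 fold changes of 0.17, 0.03 and 0.04 when shared reads were counted once. Every MIT-BATF library lay below every MIT-Empty library for 6 genes (Gins1, Pcna, Prim2, Fen1, Rrm1 and Tyms), where 3.17% of all tested genes did so. With shared reads counted once this held for 4 of them (Gins1, Prim2, Fen1 and Rrm1), against 1.56% of all tested genes.

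By role, the medians of the log2 fold change when shared reads were counted once were -0.30 for licensing, -0.19 for the helicase, -0.23 for the clamp and its loader, -0.42 for polymerases and primase, -0.34 for single-stranded DNA and Okazaki fragments, -0.50 for nucleotide synthesis, -0.30 for cyclin E and E2F genes and -0.32 for chromatin genes. The medians given with each role below are those of the deposited counts.

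**Figure D2:**
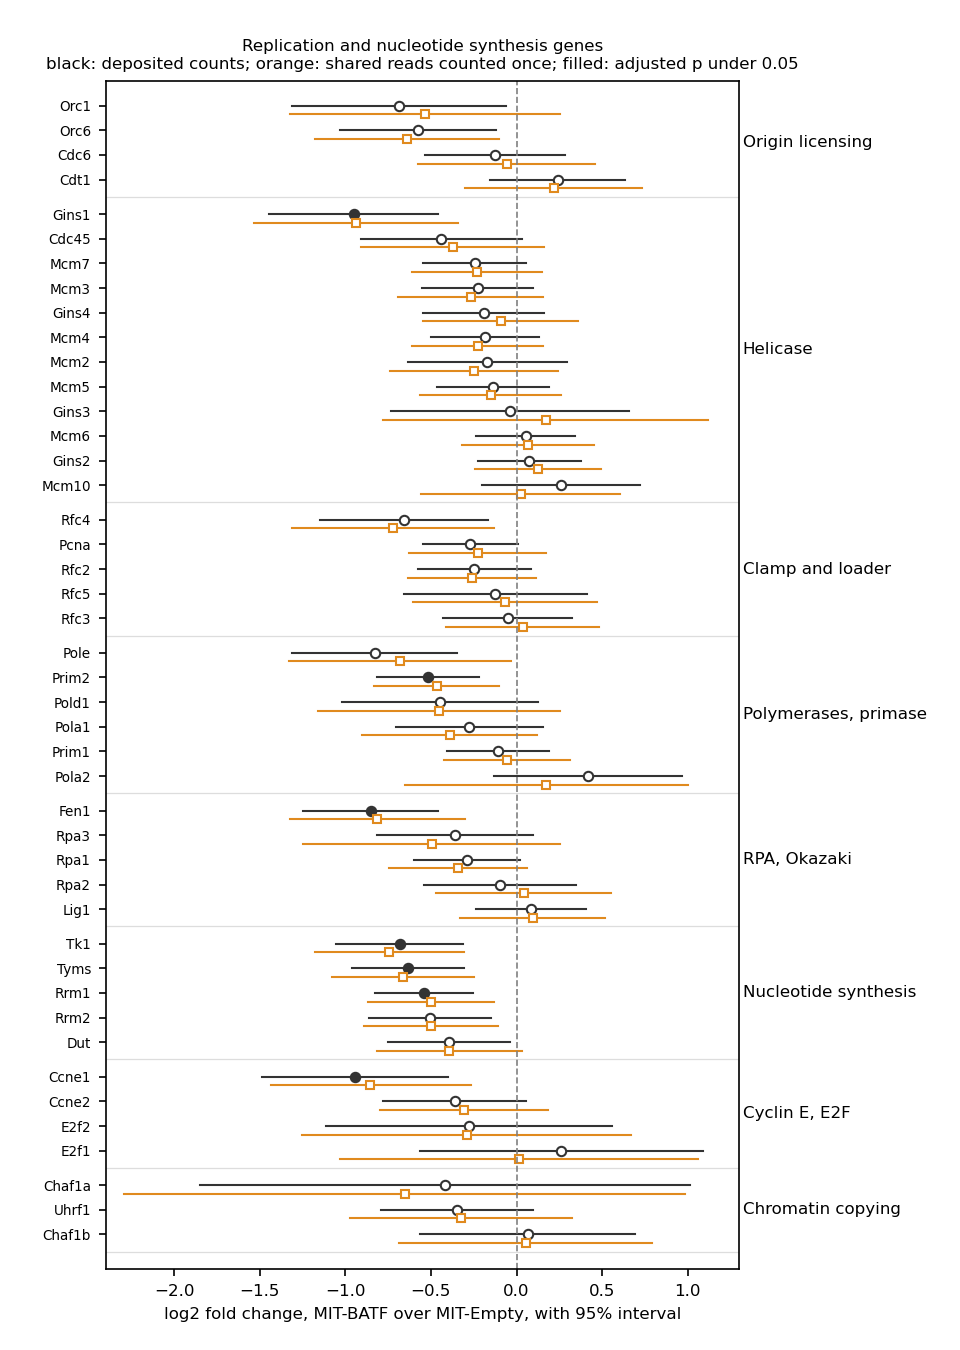
Log2 fold change of MIT-BATF over MIT-Empty (x axis) with its 95% interval for the 44 genes, grouped by role, fitted by edgeR over 10 libraries. Black circles are the deposited counts, filled where the adjusted p was under 0.05 (7 genes), and orange squares are the values with shared reads counted once, of which 0 passed.

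Among the 4 licensing genes 0 passed the test, with a median log2 fold change of -0.35. Orc6, which encodes a subunit of the origin recognition complex, was at 28.4, 58.5, 56.6, 61.4 and 82.6 CPM in MIT-BATF replicates 1 to 5 and at 75.8, 88.5, 78.3, 95.7 and 90.8 CPM in MIT-Empty replicates 1 to 5. Only MIT-BATF replicate 5 reached into the MIT-Empty range, and replicate 1 was the lowest of the 10 libraries. The log2 fold change of Orc6 was -0.58 (standard error (SE) 0.21, edgeR adjusted p = 0.158) and -0.64 with shared reads counted once (adjusted p = 0.325). Orc1, the ATPase subunit of the same complex, had a log2 fold change of -0.69 (95% interval -1.31 to -0.06, edgeR adjusted p = 0.225) at 3.37 ± 1.21 and 5.52 ± 0.99 CPM (SD, n = 5 each). The MCM loaders Cdc6 and Cdt1 had log2 fold changes of -0.13 (95% interval -0.53 to 0.28) and 0.24 (-0.15 to 0.63), and their groups overlapped.

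Of the 12 helicase genes 1 fell, Gins1, and the median log2 fold change was -0.18. Gins1, on chromosome 2 from 150905400 to 150931280 (GRCm38), encodes the PSF1 subunit of the GINS complex. It was at 3.51, 7.05, 6.67, 7.73 and 6.47 CPM in MIT-BATF replicates 1 to 5 and at 9.55, 14.6, 11.3, 10.7 and 14.7 CPM in MIT-Empty. The groups did not overlap, also with shared reads counted once. Gins1 had a log2 fold change of -0.95 (SE 0.23, edgeR adjusted p = 0.0293) and -0.94 with shared reads counted once (adjusted p = 0.151). The other GINS subunits had log2 fold changes of 0.07 (Gins2, 95% interval -0.23 to 0.37), -0.04 (Gins3, -0.73 to 0.66) and -0.19 (Gins4, -0.54 to 0.16), and none of these passed.

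The 6 genes of the MCM2-7 ring gave 0 calls. Their log2 fold changes were -0.17 (Mcm2), -0.23 (Mcm3), -0.19 (Mcm4), -0.14 (Mcm5), 0.05 (Mcm6) and -0.25 (Mcm7), and the groups overlapped for each. Mcm6, the 1 of these with a fold change above 0, was at 88.0 ± 12.4 CPM (MIT-BATF) against 84.9 ± 7.41 CPM (MIT-Empty; mean ± SD, n = 5 each), with a 95% interval of its log2 fold change from -0.24 to 0.34. For Mcm2 the interval ran from -0.64 to 0.30, and MIT-BATF replicates 1 and 5 held the lowest and the highest of the 10 values, 22.3 and 60.0 CPM. For Mcm3 36.5% of counts fell in protein-coding transcripts, and on those alone its log2 fold change was 0.05 rather than -0.23. Cdc45, which like the GINS complex binds the ring in the active helicase, had a log2 fold change of -0.44 (95% interval -0.91 to 0.03). Mcm10, a helicase activator, had one of 0.26 (-0.20 to 0.72), which was 0.02 with shared reads counted once and -0.01 on protein-coding transcripts.

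Of the 5 clamp and clamp loader genes 0 passed, and all 5 had log2 fold changes below 0, with a median of -0.25. Pcna, the sliding clamp, had the highest level per transcript length of the 44 genes, at 151 ± 37.1 TPM (MIT-BATF) against 175 ± 20.9 TPM (MIT-Empty; mean ± SD, n = 5 each). TPM is the deposited level scaled to transcript length and library total. Its values were 314 to 387 CPM in MIT-BATF and 394 to 486 CPM in MIT-Empty, which did not overlap, but overlapped with shared reads counted once, and its log2 fold change was -0.27 (95% interval -0.55 to 0.01, edgeR adjusted p = 0.285). Rfc4, a subunit of the clamp loader RFC, was at 24.0, 44.4, 46.7, 45.9 and 73.4 CPM in MIT-BATF replicates 1 to 5 and at 56.6, 72.3, 73.3, 75.5 and 91.9 CPM in MIT-Empty. MIT-BATF replicate 5 alone lay above the lowest MIT-Empty values. Rfc4 had a log2 fold change of -0.66 (SE 0.23, edgeR adjusted p = 0.133) and -0.72 with shared reads counted once (adjusted p = 0.308). Rfc2, Rfc3 and Rfc5, other subunits of the loader, ranged from -0.25 to -0.05 on the log2 scale.

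Among the 6 polymerase and primase genes Prim2 fell and the median log2 fold change was -0.36. Prim2, on chromosome 1 from 33453810 to 33669795, encodes the large subunit of primase. It was at 16.9, 16.4, 16.8, 16.7 and 16.3 CPM in MIT-BATF replicates 1 to 5 and at 19.2, 22.6, 23.9, 27.5 and 25.9 CPM in MIT-Empty. The MIT-BATF values lay close together and all of them lay below MIT-Empty. The fold change of Prim2 on the log2 scale was -0.52 (SE 0.14, edgeR adjusted p = 0.0483) and -0.47 with shared reads counted once (adjusted p = 0.275). Prim1, the catalytic subunit of primase, had a log2 fold change of -0.11 (95% interval -0.41 to 0.19). Pole, the catalytic subunit of the leading strand polymerase epsilon, was at 11.3 ± 3.92 and 20.1 ± 2.34 CPM (SD, n = 5 each), and its log2 fold change of -0.83 stood just outside the threshold (edgeR adjusted p = 0.051, 0.427 with shared reads counted once), while DESeq2 called it. Pold1 (-0.45) and Pola1 (-0.28), catalytic subunits of polymerases delta and alpha, did not pass, and on protein-coding transcripts alone, which held 33.4% of its counts, Pold1 had -0.11. Pola2, the regulatory subunit of polymerase alpha, had the highest log2 fold change of the 44 genes in the deposited counts, 0.42 (95% interval -0.13 to 0.97), at 102 ± 27.0 and 76.8 ± 30.7 CPM. Pola2 had 0.17 with shared reads counted once, and Cdt1 was the highest at 0.22.

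Of the 5 genes for single-stranded DNA and Okazaki fragments Fen1 fell, and the median log2 fold change was -0.29. Fen1, on chromosome 19 from 10199132 to 10204169, encodes the flap endonuclease that trims Okazaki fragments. It was at 9.30, 10.2, 9.69, 8.61 and 7.12 CPM in MIT-BATF replicates 1 to 5 and at 13.7, 21.0, 16.2, 12.6 and 17.3 CPM in MIT-Empty. The groups did not overlap, with replicate 2 the highest in both. In the deposited counts Fen1 had the smallest adjusted p of the 44 genes, 0.0166 from edgeR, with a log2 fold change of -0.85 (SE 0.19), and -0.81 with shared reads counted once (adjusted p = 0.144). Its exons overlap those of Tmem258 on the other strand, and these libraries do not mark strand. Lig1, the ligase that seals Okazaki fragments, had a log2 fold change of 0.09 (95% interval -0.23 to 0.41), and -0.28 on protein-coding transcripts alone. The subunits of RPA, which coats single-stranded DNA, had log2 fold changes of -0.29 (Rpa1), -0.10 (Rpa2) and -0.36 (Rpa3), and none passed.

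The nucleotide synthesis genes had the lowest median of the 8 roles. All 5 had log2 fold changes below 0 (median -0.54, and -0.50 with shared reads counted once), 3 fell past the test, and all 5 had an unadjusted p under 0.05 by edgeR, or 4 with shared reads counted once. Of 30 further nucleotide genes 18 had log2 fold changes below 0, with a median of -0.07, and 0 passed the test. At an unadjusted p under 0.05 by edgeR, 5 of these 30 were lower and 4 higher. With shared reads counted once 16 of the 30 were below 0, with a median of -0.02, and 4 were lower and 0 higher at that p. Summed over the 5 genes the levels were 267, 328, 362, 318 and 405 CPM in MIT-BATF replicates 1 to 5 and 435, 470, 469, 491 and 504 CPM in MIT-Empty. Every MIT-BATF library was below every MIT-Empty library, and MIT-BATF replicate 5 came nearest. With shared reads counted once the sums were 286 to 435 and 465 to 542 CPM, again without overlap. Such separation was not particular to this role. The licensing sums also lay apart (at most 108.1 and at least 109 CPM), but not with shared reads counted once. Mitosis genes lay further apart, at most 483.8 and at least 608.5 CPM, or 523.2 and 654.6 CPM with shared reads counted once. Dut, whose groups overlapped, made up 106 of 267 CPM in MIT-BATF replicate 1 and 244 of 504 CPM in MIT-Empty replicate 5.

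Rrm1 (chromosome 7, 102441695 to 102469771) was at 67.0, 62.9, 64.4, 53.4 and 49.4 CPM in MIT-BATF replicates 1 to 5 and at 82.2, 97.1, 86.2, 89.4 and 77.8 CPM in MIT-Empty. The groups did not overlap, also with shared reads counted once, and MIT-BATF replicates 4 and 5 were the lowest. Its log2 fold change was -0.54 (SE 0.13, edgeR adjusted p = 0.0319) and -0.50 with shared reads counted once (adjusted p = 0.235). Rrm2, the small subunit of the same reductase, whose supply limits the enzyme outside S phase, was at 43.9 ± 9.13 and 62.5 ± 9.30 CPM (SD, n = 5 each), with a log2 fold change of -0.51 that missed the threshold (edgeR adjusted p = 0.107).

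Tyms (chromosome 5, 30058202 to 30073617), which makes dTMP from dUMP, was at 43.9, 55.8, 57.9, 59.3 and 74.5 CPM in MIT-BATF replicates 1 to 5 and at 76.0, 95.3, 85.2, 92.4 and 103 CPM in MIT-Empty. The highest MIT-BATF library lay just under the lowest MIT-Empty library, and with shared reads counted once they overlapped. Tyms had -0.63 on the log2 scale (SE 0.15, edgeR adjusted p = 0.0291) and -0.66 with shared reads counted once (adjusted p = 0.145). Tk1 (chromosome 11, 117815526 to 117826092), the thymidine kinase of the salvage route to dTMP, was at 13.2, 18.1, 18.7, 17.9 and 23.2 CPM in MIT-BATF and at 22.0, 29.2, 31.4, 36.4 and 27.8 CPM in MIT-Empty. MIT-BATF replicate 5 lay above MIT-Empty replicate 1, and the other values did not overlap. Its log2 fold change was -0.68 (SE 0.17, edgeR adjusted p = 0.0371) and -0.74 with shared reads counted once (adjusted p = 0.108). Tk1 shares exonic bases with Afmid on the other strand. Dut, which hydrolyses dUTP, was at 156 ± 35.1 and 205 ± 25.03 CPM (SD, n = 5 each), and its log2 fold change was -0.39 (95% interval -0.75 to -0.04, edgeR adjusted p = 0.225).

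**Figure D3:**
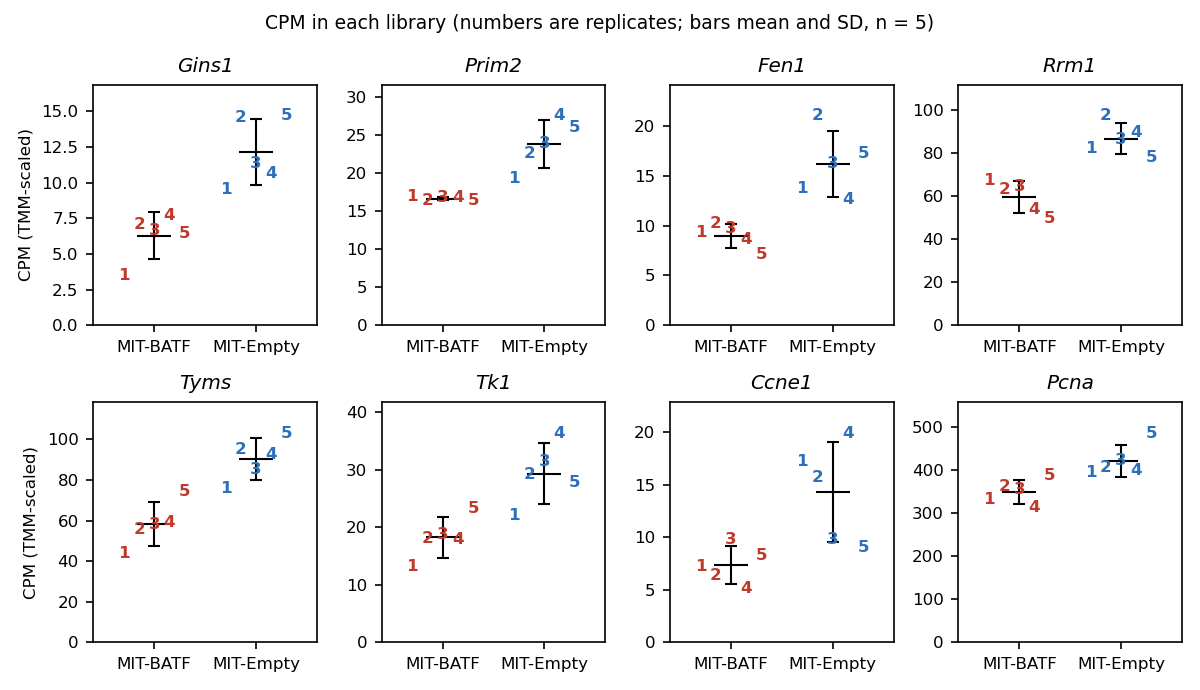
CPM (TMM-scaled, linear axis from 0) in each library for the 7 genes that fell and for Pcna, red for MIT-BATF and blue for MIT-Empty, digits giving the replicate and bars the mean and SD of 5 libraries. Gins1, Prim2, Fen1, Rrm1, Tyms and Pcna did not overlap between groups, whereas Tk1 and Ccne1 did.

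Of the 4 cyclin E and E2F genes Ccne1 fell, and the median log2 fold change was -0.32. Ccne1 (chromosome 7, 38097984 to 38107534), the cyclin E1 gene whose product activates CDK2 at the G1/S transition, was at 7.20, 6.32, 9.78, 5.09 and 8.30 CPM in MIT-BATF replicates 1 to 5 and at 17.1, 15.7, 9.78, 19.9 and 9.04 CPM in MIT-Empty. MIT-Empty replicates 3 and 5 were near the top of the MIT-BATF range, above the MIT-BATF mean of 7.34 CPM. The difference lay mostly in MIT-Empty replicates 1, 2 and 4. The same 3 libraries had the highest summed melanoma markers in the deposited counts, 125.6, 611.2 and 1839 CPM. After the subtraction replicate 2 was at 54.4 CPM, below replicate 3 at 75.0 CPM, and the part of melanoma RNA in Ccne1 was not tested. The log2 fold change was -0.94 (SE 0.25, edgeR adjusted p = 0.0486), and -0.85 with shared reads counted once (adjusted p = 0.193). Ccne2, the second cyclin E gene, had -0.36 (95% interval -0.78 to 0.06). The E2F activator genes E2f1 and E2f2 averaged 2.58 and 2.93 CPM in MIT-BATF, with log2 fold changes of 0.26 (95% interval -0.56 to 1.09) and -0.28 (-1.11 to 0.56), or 0.01 and -0.29 with shared reads counted once, and no difference was detectable at this depth.

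The 3 chromatin genes gave 0 calls, with a median log2 fold change of -0.35. Uhrf1, which couples DNA methylation to replication, was at 13.4, 22.4, 20.9, 13.4 and 13.8 CPM in MIT-BATF replicates 1 to 5 and at 19.7, 20.4, 29.4, 22.0 and 15.7 CPM in MIT-Empty. The ranges overlapped, with MIT-BATF replicates 2 and 3 among the MIT-Empty values. The log2 fold change of Uhrf1 was -0.35 (SE 0.21, edgeR adjusted p = 0.413) and -0.32 with shared reads counted once (adjusted p = 0.82). Without MIT-Empty replicate 3, the highest of the 10 libraries for Uhrf1, these were -0.21 and -0.0085. Of the CAF-1 histone chaperone subunits, Chaf1b had 0.06 (95% interval -0.56 to 0.69), and Chaf1a had 1 count in MIT-BATF replicate 1 and 1 in MIT-Empty replicate 1, and a log2 fold change of -0.42 with the widest interval of the 44 genes, -1.85 to 1.01.

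**Figure D4:**
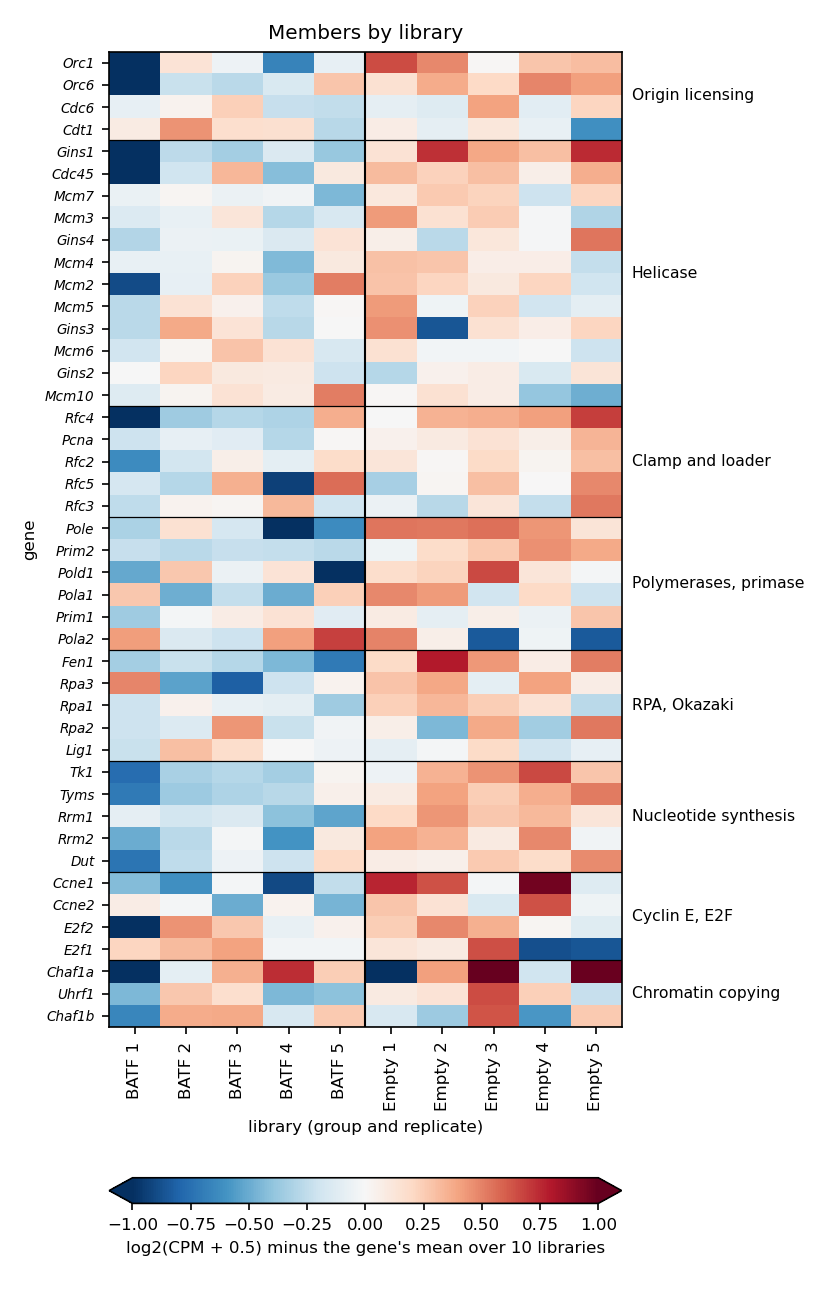
Deviation of log2(CPM + 0.5) from each gene's mean over the 10 libraries (color, limited to -1 to 1), with the 44 genes in rows by role and the libraries in columns. MIT-BATF replicate 1 is the lowest library for 17 of the 44 genes, and the nucleotide synthesis rows are mostly blue in MIT-BATF and red in MIT-Empty.

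The libraries differed within MIT-BATF. Replicate 1 was the lowest of the 10 libraries for 17 of the 44 genes, replicate 4 for 8 and replicate 5 for 7, and MIT-Empty replicate 5 was the highest for 11. Summed over the 44 genes the level was 1591 to 1971 CPM in MIT-BATF and 2104 to 2171 CPM in MIT-Empty, and 1706 to 2118 against 2176 to 2355 CPM with shared reads counted once. Without MIT-BATF replicate 1, 6 of the 44 genes fell. Without MIT-Empty replicates 2 and 4, which had the highest melanoma sums in the deposited counts, 0 of the 44 passed edgeR's test (10 at an unadjusted p under 0.05), while 37 were below 0 and the median was -0.29. The log2 fold change of Fen1 was then -0.81 (edgeR adjusted p = 0.0635), of Tyms -0.59 (0.162) and of Ccne1 -0.68 (0.293). Leaving out MIT-Empty replicate 2 alone also left 0 genes past the test, and leaving out any of MIT-BATF replicates 2 to 4 or MIT-Empty replicates 3 and 4 left 2. Without MIT-Empty replicate 5, 3 passed.

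Per transcript length the 44 genes spanned a wide range of levels, given here as the mean TPM over the 10 libraries. Pcna (163 TPM), Dut (141 TPM) and Rpa3 (129 TPM) were the highest, followed by Tyms (55.2 TPM) and Orc6 (35.5 TPM). The lowest were Chaf1a (0.37 TPM), E2f2 (0.47 TPM) and E2f1 (0.62 TPM). The 7 genes that fell lay between, from 3.35 TPM for Ccne1 to 55.2 TPM for Tyms. For 3 genes, Rfc2 (28.8%), Pold1 (33.4%) and Mcm3 (36.5%), under 50% of the counts were in protein-coding transcripts, and the rest were in other transcript types. Counting protein-coding transcripts alone, 5 of the 44 genes fell, with Rrm1 (edgeR adjusted p = 0.0525) and Ccne1 (0.0659) missing the threshold.

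**Figure D5:**
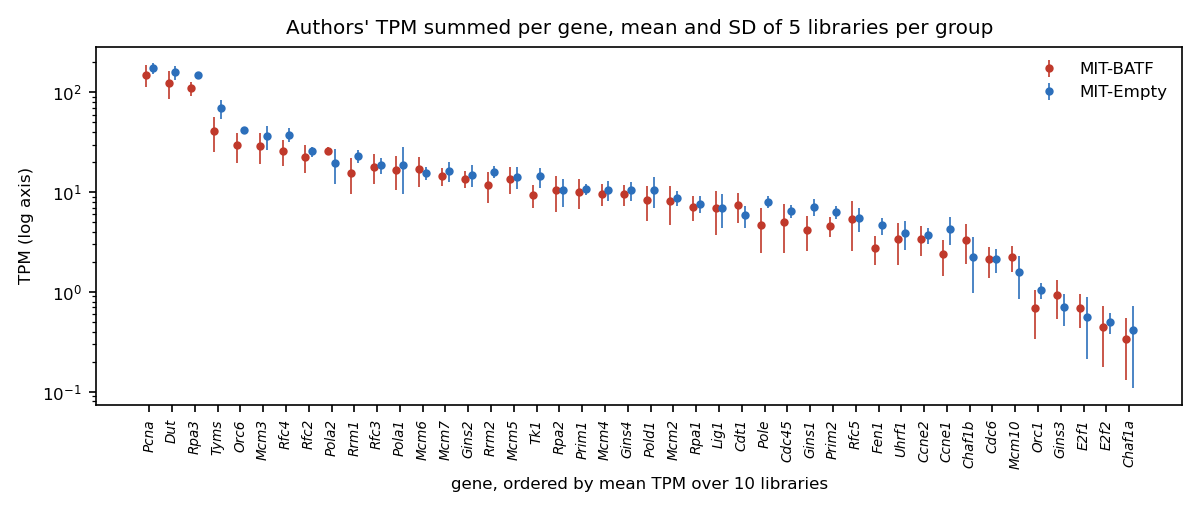
TPM of the 44 genes on a log axis, ordered by the mean over 10 libraries, with points and bars giving the mean and SD of 5 libraries in MIT-BATF (red) and MIT-Empty (blue). Levels run from 163 TPM for Pcna to 0.37 TPM for Chaf1a.

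Other genes of the same processes were counted in the same fit. Of 98 further replisome, nucleotide, G1/S and chromatin genes 95 were tested, 1 fell and 0 rose, and the median log2 fold change was -0.12. At an unadjusted p under 0.05 by edgeR 13 were lower and 5 higher, against 8.97% and 9.13% of all genes tested. With shared reads counted once edgeR made 0 calls among 94 tested (DESeq2 made 1), and the median was -0.12. At that unadjusted p 9 were then lower and 1 higher, against 5.18% and 5.46% of all genes tested. The one that fell was Ccna2, the cyclin A2 gene of S and G2 phases, at 30.7 ± 7.88 CPM (MIT-BATF) against 65.7 ± 6.95 CPM (MIT-Empty; mean ± SD, n = 5 each; log2 fold change -1.09, edgeR adjusted p = 0.00292, 0.0882 with shared reads counted once). The genes with the highest TPM of each list did not pass, namely Timeless (log2 fold change -0.26), a fork protection gene, Nme2 (0.04), a nucleoside diphosphate kinase, Cdk4 (-0.29) and the histone mRNA binding gene Slbp (-0.08). Genes of mitosis, which act after replication, gave 10 of 30 lower and 0 higher (median on the log2 scale -0.65), and 3 of 30 with shared reads counted once. Those 3 were the spindle checkpoint kinase gene Ttk, the cyclin B2 gene Ccnb2 and Ube2c, a ubiquitin-conjugating enzyme of mitotic exit. In the deposited counts their log2 fold changes were -1.83, -1.05 and -1.52 (edgeR adjusted p = 0.00123, 0.00297 and 0.00893). When shared reads were counted once they were -1.70, -0.98 and -1.44 (edgeR adjusted p = 0.0152, 0.0195 and 0.0443), and the list median was -0.61. The difference between the mitosis list and the 44 replication genes was not tested.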

How the data were processed

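Per the labels, RNA of sorted cells was made into libraries by a modified SMART-Seq2 protocol and read in pairs of 37 bp. The authors ran an nf-core/rnaseq pipeline on mm10 and quantified transcripts with Salmon (version not given in the sources used here), and the deposited files hold estimated counts, TPM values and transcript lengths for 112092 transcripts. GENCODE vM21 (GRCm38) matched 111787 of them, and the 305 others held at most 0.089% of a library's counts. Gene counts here are rounded sums over transcripts. TPM values, scaled by the authors to length and library total, were summed per gene and not tested.

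Groups and replicates came from the labels. edgeR 4.0.16 in R 4.3.3 (TMM, filterByExpr, quasi-likelihood test, condition only) was fitted to all 11781 genes kept, with Benjamini-Hochberg adjustment over them and a threshold of 0.05. The methods name no block. CPM values are TMM-scaled, errors are SDs, and intervals cover the spread between these 10 libraries. Counts of one library that lay within another's (larger in fewer than 1% of those genes that had 5 counts or more) were subtracted from it for the fit with shared reads counted once (11129 genes). The script was tested on simulated data with independent libraries, which does not cover counts shared between libraries. Alternatives were DESeq2 1.42.0, RLE factors, scaling without mitochondrial genes, 2 other filters, length offsets, a replicate block, protein-coding transcripts only and libraries left out. Those on protein-coding transcripts, and those joining shared reads counted once to a block or to left-out libraries, were chosen after seeing the data. Which libraries were contained or containing followed from these counts. MIT-Empty replicates 2 and 4 stood out in the deposited counts by their melanoma sums.

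The 44 genes and all lists were chosen with earlier results of these data known. Values per library are given for genes past the test in either fit and for the gene with the smallest p in each role, the other genes by range, and other lists by those past the test and their highest TPM. Pole, Pola2, Pcna and others given with values outside this rule were chosen after their values were seen. Of the 44 genes 15 share exonic bases with another gene, and reads of the overlap cannot be told apart without strand.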

Additional observations from a re-analysis of the deposited data

Results flagged for a closer look

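Within groups of 5 libraries, 94 sets of values from the deposited counts were examined for a library far from the others. Of these, 2 stood out by Dixon's criterion at 95%, which chance alone meets in about 1 of 20 sets of independent values. Counts of some libraries lay within those of others, so that rate need not hold here. Mcm7 measured 26.6 CPM in replicate 5 of MIT-BATF, below the 34.9 to 36.9 CPM of the remaining replicates. Its exons overlap those of Cops6 and Ap4m1 on the other strand. Rpa2 measured 39.6 CPM in replicate 3 of MIT-BATF, above the 24.8 to 28.3 CPM of the remaining replicates. Neither gene passed the test between the groups. With shared reads counted once the 2 values were 28.6 CPM (Mcm7) and 51.5 CPM (Rpa2). The remaining MIT-BATF replicates were then at 37.4 to 44.15 CPM and 26.6 to 30.4 CPM. Dixon's criterion was not applied to those counts.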

How the results depend on the processing

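The median log2 fold change of the 44 genes ran from -0.33 to -0.20 over 35 alternatives, and 0 of the 44 genes rose in any of them. Depending on the alternative, 32 to 38 of the 44 genes were below 0. The 10 genes given by library were below 0 in 350 of 350 values. Uhrf1 reached -0.0085 without MIT-Empty replicate 3 and with shared reads counted once. These 10 genes were picked by their p in the same libraries and were all below 0 in the main fit, so their signs were no independent check. The number of genes that fell was less stable. It was 7 with the deposited counts, 8 by DESeq2, 5 with RLE factors, 3 with no filter and 3 with length offsets. It was 0 with shared reads counted once (by edgeR and by DESeq2), 0 without the contained libraries, 0 without the containing ones and 0 without MIT-Empty replicates 2 and 4, with or without shared reads. Leaving out 1 library gave 0 to 6, and 0 in each case with shared reads counted once. Other pathway genes past the test numbered 1, or 5 by DESeq2, 3 at a mean count of 50, 2 on protein-coding transcripts, 1 to 4 without 1 library (0 or 1 with shared reads counted once), 0 with shared reads counted once by edgeR (also without MIT-Empty replicates 2 and 4, or with the block), 1 by DESeq2 on those counts, and 0 without contained or containing libraries. Over all genes the count was 540, or 1253 by DESeq2, 903 with no filter, 259 without MIT-Empty replicates 2 and 4 (53 with shared reads counted once), 96 without contained and 15 without containing libraries, 140 with shared reads counted once (389 by DESeq2), and 287 to 772 without 1 library. With shared reads counted once as well, leaving out MIT-BATF replicates 1 to 5 gave 138, 89, 119, 93 and 150, and leaving out MIT-Empty replicates 1 to 5 gave 98, 66, 131, 116 and 133. The fits without whole libraries have fewer samples. The cause of the other changes was not tested.

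With the replicate number as a block 7 genes fell, Rfc4 and Pole among them and Prim2 and Ccne1 not, and 2 (Rfc4 and Tyms) with the block and shared reads counted once, where all genes past the test numbered 174. Deviations of same-numbered libraries correlated at -0.13 to 0.41 over 5871 genes. Libraries of different number were not compared, so this range cannot decide whether the numbers pair the mice, and the main fit has no block. Depth limits Chaf1a, E2f1 and E2f2, each under 10 counts in some library.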
